A study of Mus musculus with 24 samples.

Results

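The 9 genes described here encode secreted metabolic signals of the liver (Fgf21, Gdf15, Igfbp1, Igfbp2, Angptl4, Inhbe, Fst and Enho) and the leptin receptor (Lepr). They were taken by symbol from a table of 23411 genes, and all 9 passed the filter on low counts in both fits described next. Poly(A) RNA was sequenced from livers of 24 male mice, 16 to 20 weeks old, on a mixed background of 129/Sv and C57BL/6, with 3 mice in each of 8 groups. α7HMZ mice, which express P2-HNF4α in place of P1-HNF4α, were killed after a 12 h fast at 10:30, or fed ad libitum at 10:30, 13:30 or 20:30. WT mice, whose adult livers express P1-HNF4α, were killed in the same 4 conditions. The α7HMZ allele is carried in every tissue, not in the liver alone. The design asked how the isoform, the time of day and fasting relate to liver RNA. Counts do not separate P1 from P2 transcripts, so Hnf4a itself does not check the genotype labels. Over all conditions it lay between 806 and 1352 CPM in α7HMZ mice, against 575 to 1105 CPM in WT mice. In the edgeR test described below, Hnf4a was called higher in α7HMZ livers fed at 20:30 (log2 fold change 0.50, adjusted p = 0.0443). The same held in fasted livers (0.60, adjusted p = 0.0154, all libraries kept). It was not called in fed livers at 10:30 (0.46, adjusted p = 0.0629) or 13:30 (-0.20, adjusted p = 0.53).

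HNF4α is a nuclear receptor that keeps hepatocytes differentiated, and its gene has an adult liver promoter (P1) and a second promoter (P2) used in fetal liver and gut. The liver also acts as an endocrine organ. During fasting, fatty acids activate PPARα, glucagon raises cAMP, and the fall in insulin releases FOXO1, and these routes turn on genes for fat oxidation, glucose output and secreted signals. FGF21 acts on fat and brain through FGF receptors and the co-receptor β-klotho, GDF15 acts on a hindbrain receptor, and IGFBP1 and IGFBP2 bind insulin-like growth factors in blood. ANGPTL4 inhibits lipoprotein lipase. The activin E subunit encoded by Inhbe is made mainly by hepatocytes, follistatin (Fst) binds and blocks activins, and adropin (Enho) is a small peptide tied to energy balance. RNA was measured here, not the circulating proteins.

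Libraries held 8545959 to 28445590 counts. Levels are given as CPM, a gene's counts scaled to a common library total with TMM factors. Differences are log2 fold changes with their standard error (SE) from edgeR's quasi-likelihood test, called at an adjusted p under 0.05 over all genes tested. In the fed α7HMZ library of replicate 1 at 10:30, ribosomal Rn45s took 50.8% of the counts, and in fed α7HMZ replicate 3 at 20:30 it took 3.76%, against 0.064% to 0.405% in the other 22. At 20:30, α7HMZ replicates 1 and 3 and WT replicate 2 held Krt19, a bile duct gene, at 14.3, 12.5 and 18.3 CPM, and the pancreatic gene Ctrb1 at 1.866, 3.318 and 4.999 CPM, against at most 7.07 and 0.534 CPM elsewhere. These 3 libraries and fed α7HMZ replicate 1 at 10:30 are called the 4 doubted libraries. Only the last of them was in the fit of the 10:30 libraries. There, leaving out the doubted libraries and leaving out that library are the same fit. The doubt about 20:30 libraries rests on single genes, not on full marker lists. The 8 pancreas markers summed to 22.1, 25.1 and 27 CPM in α7HMZ replicates 1 to 3 at 20:30. At that time they summed to 30.5, 55.4 and 40.2 CPM in WT replicates 1 to 3. The 6 bile duct markers summed to 92.0, 71.6 and 80.9 CPM in these α7HMZ livers, and to 41.6, 70.75 and 44.5 CPM in these WT livers. The sum of 5 hepatocyte markers was 75950 to 152100 CPM, at 75950 to 92300 CPM in fasted α7HMZ livers, against 128100 to 146000 CPM in fasted WT livers, where 1 of the 5 was called lower in α7HMZ livers. On the fed average 4 of these 5 were lower and 2 of 6 bile duct markers higher in α7HMZ livers. There, 2 of 8 stellate, 1 of 8 endothelial and 1 of 3 pancreas markers were also lower. In fasted α7HMZ livers, 3 of 5 bile duct markers were lower than in fasted WT livers and 1 was higher. Higher too were 4 of 7 Kupffer and 2 of 8 endothelial markers. Fasting in WT livers lowered 5 of 8 endothelial, 3 of 8 stellate, 2 of 5 hepatocyte, 1 of 7 Kupffer and 1 of 2 pancreas markers. It raised 2 of 5 bile duct and 2 of 4 lymphocyte markers. Fasted α7HMZ libraries had 2 of 4 lymphocyte and 1 of 5 bile duct markers higher than fed ones at 10:30. They had 1 of 8 stellate, 1 of 2 pancreas and 1 of 1 adipocyte markers lower. The part of these shifts in the results was not tested. The adipocyte gene Lep was at 0 in all 24 libraries. The fasted α7HMZ library of replicate 3 stood apart: its 7 Kupffer cell markers summed to 848 CPM, against 175 and 193 CPM in the other fasted α7HMZ livers and 108 to 195 CPM in fasted WT livers. Its 6 lymphocyte markers summed to 27.7 CPM, against 7.55 and 9.48 CPM in the other fasted α7HMZ livers. In fasted WT livers they summed to 6.31 to 9.87 CPM. Its hepatocyte marker sum, 75950 CPM, was the lowest of the 24. That library also held the lowest Fgf21, Igfbp1, Igfbp2, Gdf15, Inhbe and Lepr of its group, so differences that involve fasted α7HMZ livers are given with and without it; the part of these cells in the results was not tested. In whole liver, fewer cells of a type and less RNA per cell cannot be told apart. The fasted α7HMZ libraries were run on another flow cell than the fed 10:30 and fasted WT libraries, so fasting in α7HMZ livers, genotype in fasted livers and their interaction cannot be told apart from the flow cell. A rise or fall with fasting in α7HMZ livers is therefore a difference between fasted and fed 10:30 libraries, flow cell included. Fed comparisons of genotype, fasting in WT livers and 20:30 against 13:30 each lay within 1 flow cell. The 10:30 and the later fed libraries were on different flow cells, so a change of the genotype difference between 10:30 and the later times cannot be told apart from the flow cell.

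**Figure D1:**
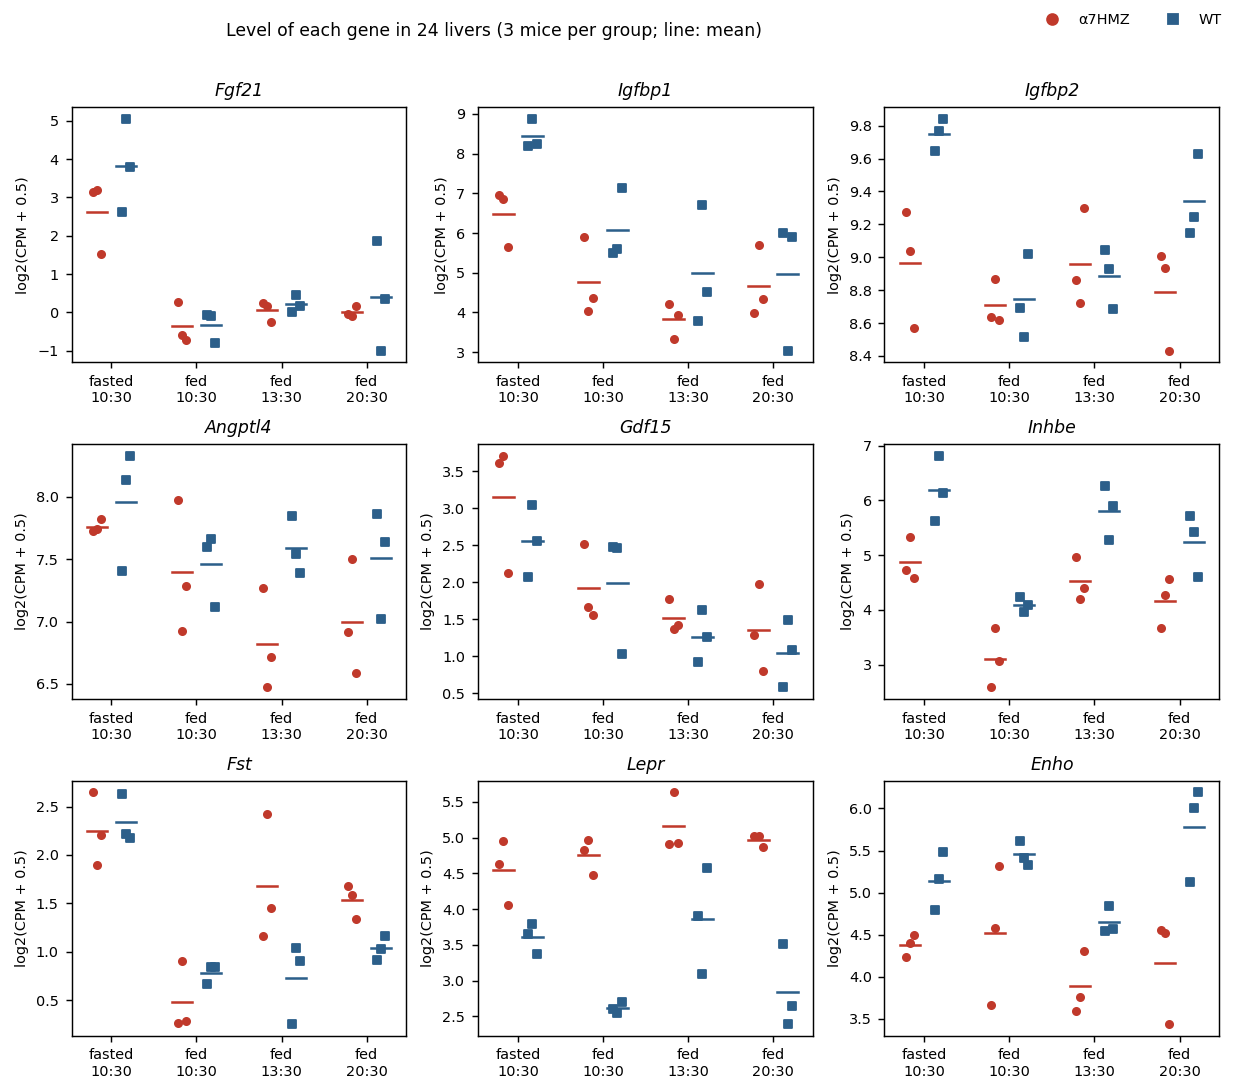
Level of each gene in each of the 24 livers, as log2(CPM + 0.5), with 1 panel per gene; points are mice (3 per group), circles for α7HMZ and squares for WT, and lines are group means. Fgf21 stood higher in all 6 fasted livers than in fed livers at 10:30, in each condition the α7HMZ means of Lepr lay above those of WT livers, and the means of Inhbe and Enho below them.

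Per kilobase of the longest coding transcript, the genes spanned a wide range of levels. In fed WT livers at 10:30, Igfbp2 was the highest at 331 ± 60.2 CPM per kb (SD, n = 3), ahead of Angptl4 at 53.8 ± 10.4, Igfbp1 at 51.1 ± 35.6 and Enho at 34.3 ± 3.61 CPM per kb. Igfbp1 did not differ beyond its spread from Angptl4 or Enho, nor Inhbe from Gdf15, nor Fst from Fgf21. For Inhbe this used the GENCODE transcript of 5319 bases, which starts upstream of the RefSeq start. A shorter transcript would give a higher level per kb, so the order of Inhbe and Gdf15 is not settled. The levels of Inhbe (3.14 ± 0.309), Gdf15 (2.51 ± 1.30) and Lepr (1.02 ± 0.0608) were near 1 to 3 CPM per kb, and Fst (0.434 ± 0.0425) and Fgf21 (0.339 ± 0.220) were the lowest. In fasted α7HMZ livers, Igfbp2 remained the highest of the 9 at 389 ± 92.6 CPM per kb and Fst was the lowest at 1.54 ± 0.455 CPM per kb. In fasted WT livers, Igfbp2 reached 659.5 ± 45.4 CPM per kb and Igfbp1 232.9 ± 65.1 CPM per kb.

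RefSeq promoter windows (GRCm38.p6, 250 bases before to 50 after the start of a transcript) were at hand for 6 of the 9 genes: Fgf21, Igfbp1, Igfbp2, Gdf15, Inhbe and Lepr. Angptl4, Fst and Enho had no window here. The windows of Fgf21 and Inhbe are shown because these genes rose with fasting in both genotypes and both held the amino acid response element TGATGNAA, the site through which ATF4 and related factors act. The window of Igfbp1 is shown for the insulin response sequence CAAAACAA, the kind of site bound by FOXO1. Each is written 5′ to 3′ on the strand of its gene. Capitals mark the amino acid response element (read from the other strand as TTGCATCA) and, in Fgf21, the E-box CACGTG, a site of clock and other bHLH factors; in Igfbp1 they mark the insulin response sequence. None of the marked sites overlapped.
Fgf21, chr7:45615441-45615740, minus strand: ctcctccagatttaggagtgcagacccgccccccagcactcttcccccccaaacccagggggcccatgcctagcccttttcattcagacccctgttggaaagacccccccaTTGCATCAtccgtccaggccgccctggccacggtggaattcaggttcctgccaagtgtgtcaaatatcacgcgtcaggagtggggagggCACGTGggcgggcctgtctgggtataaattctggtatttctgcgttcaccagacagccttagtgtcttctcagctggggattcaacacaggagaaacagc
Inhbe, chr10:127351799-127352098, minus strand: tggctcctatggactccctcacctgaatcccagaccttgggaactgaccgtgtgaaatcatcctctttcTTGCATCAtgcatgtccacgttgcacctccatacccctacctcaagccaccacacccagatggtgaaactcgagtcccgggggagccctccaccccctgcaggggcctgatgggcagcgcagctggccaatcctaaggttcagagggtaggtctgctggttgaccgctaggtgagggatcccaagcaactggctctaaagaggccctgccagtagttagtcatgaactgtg
Igfbp1, chr11:7197537-7197836, plus strand: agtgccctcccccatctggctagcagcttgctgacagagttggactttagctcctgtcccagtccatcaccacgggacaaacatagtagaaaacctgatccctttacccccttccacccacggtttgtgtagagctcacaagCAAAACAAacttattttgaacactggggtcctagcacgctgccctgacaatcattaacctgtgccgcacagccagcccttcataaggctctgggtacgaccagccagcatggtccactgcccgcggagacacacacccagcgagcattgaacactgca
The element began 139 bases before the start site in Fgf21 and 181 bases before it in Inhbe, and 3.97% of 32851 promoter windows held it. The Inhbe window lies within the span that GENCODE gives the gene (chr10:127348857-127354411), so the annotations place its start differently. E-boxes began 50 bases upstream in Fgf21, 142 bases upstream in the first window of Igfbp2 and 83 bases upstream in the second window of Gdf15, and 7.15% of windows held one. The insulin response sequence began 108 bases upstream in Igfbp1 and 114 bases upstream in the second window of Lepr, and 2.51% of windows held it. The core TGACG of the cAMP response element was in the Fgf21 window and in 20.8% of all windows. The full element TGACGTCA, the HNF4 motif CAAAGTCCA, the forkhead motif TGTTTAC and the nuclear receptor repeat DR1, each searched on both strands, had no match in these windows. A match is a stretch of letters, not a measured site.

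Fasting raised 3 of the 9 genes in α7HMZ livers (Fgf21, Inhbe and Fst) and lowered none, where 12.6% of 13103 genes tested were called in either direction, 6.68% being higher and 5.9% lower. In WT livers, 6 of the 9 rose (Fgf21, Igfbp1, Igfbp2, Inhbe, Fst and Lepr) and none fell, where 22.7% of all genes were called, 12% being higher and 10.6% lower. DESeq2 called 4 of the 9 in α7HMZ livers and 6 in WT livers. The genes were picked as fasting signals, so their direction is no independent evidence. The test of whether fasting acted differently in the genotypes called 0 of 9 with edgeR, where 0.252% of all genes were called; 2 of 9 had an unadjusted p under 0.05, as did 14.9% of all genes, and DESeq2 called 1 (Lepr).

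**Figure D2:**
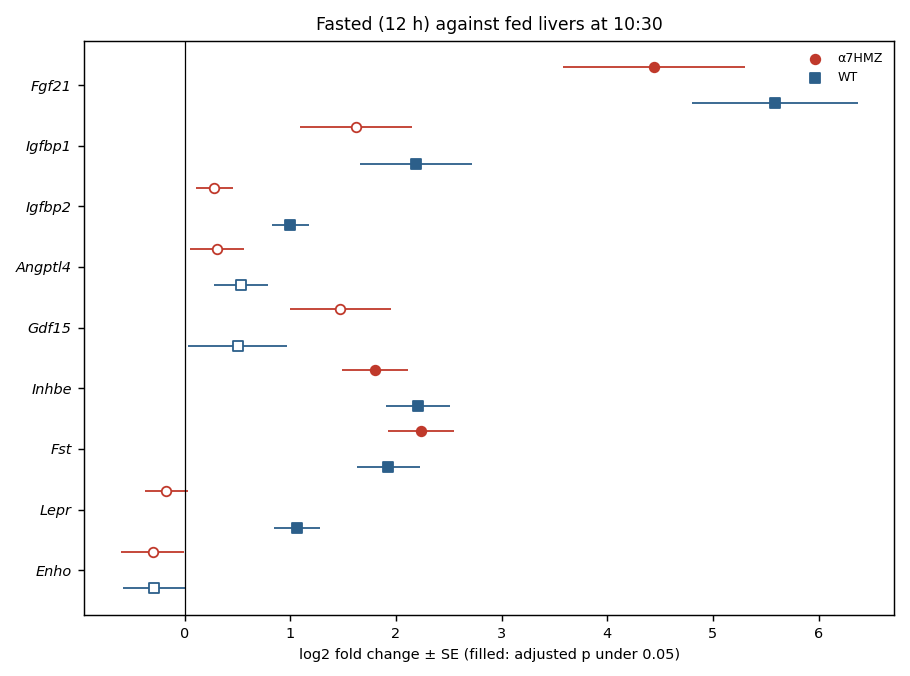
Log2 fold change (points) and SE (bars) of fasted over fed livers at 10:30 for each gene, circles for α7HMZ and squares for WT, filled where the edgeR adjusted p was under 0.05. Fgf21 had the largest fold change in each genotype (4.45 in α7HMZ and 5.58 in WT livers), and Lepr was near 0 in α7HMZ livers and 1.06 in WT livers.

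Genotype was compared at each fed time. At 10:30, 1 of the 9 genes was called (Lepr, higher in α7HMZ livers), where 17.3% of 13334 genes tested were called (8.36% higher, 8.98% lower). At 13:30, 3 were called (Lepr and Fst higher, Inhbe lower), where 12.8% of all genes were (6.19% higher, 6.61% lower). At 20:30, 4 were called (Lepr higher; Inhbe, Enho and Igfbp2 lower), where 19.1% of all genes were (8.29% higher, 10.8% lower). Averaged over the 3 fed times, 4 were called (Lepr higher; Inhbe, Enho and Igfbp1 lower), where 26.5% of all genes were (13.3% higher, 13.2% lower). At 10:30 the share of members called was below that of all genes. In fasted livers, 4 were called (Lepr higher; Inhbe, Igfbp1 and Igfbp2 lower), where 15.5% of all genes were (6.9% higher, 8.65% lower). Whether the genotype difference changed over the fed times was called for 0 of 9 by edgeR, where 4.99% of all genes were called; 1 of 9 (Fst) had an unadjusted p under 0.05, as did 26.6% of all genes, and DESeq2 called 0, with edgeR adjusted p between 0.13 and 0.832.

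**Figure D3:**
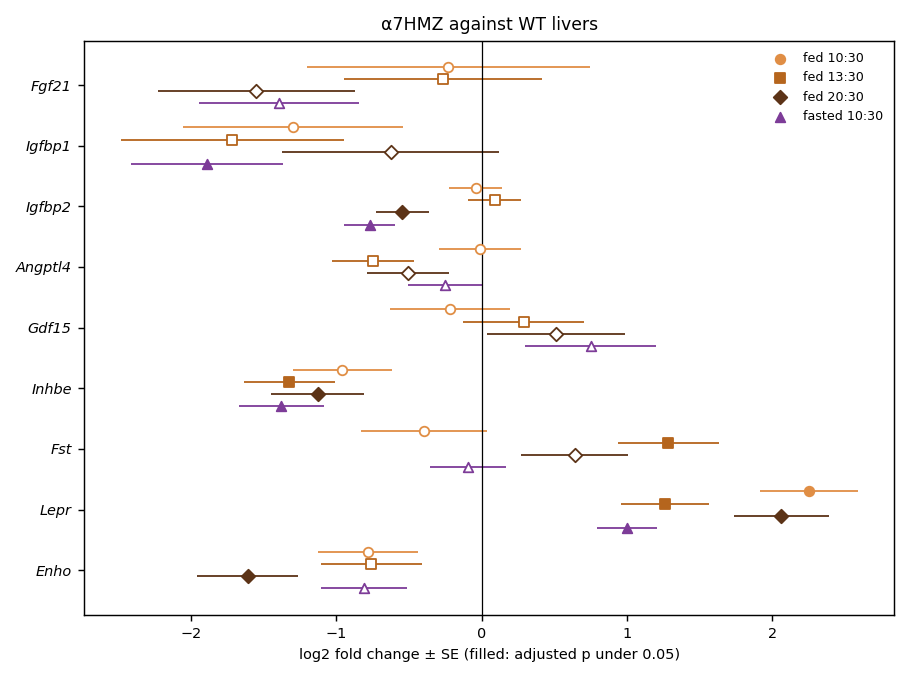
Log2 fold change (points) and SE (bars) of α7HMZ over WT livers for each gene, in fed livers at 10:30 (circles), 13:30 (squares) and 20:30 (diamonds) and in fasted livers at 10:30 (triangles), filled where the edgeR adjusted p was under 0.05. Lepr lay between 1.00 and 2.25 in the 4 conditions, Inhbe between -1.38 and -0.96, and Enho between -1.61 and -0.76.

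Fgf21 (mm10, chr7:45613886-45615490, minus strand) encodes the fasting hormone FGF21, a PPARα and ATF4 target. It was close to absent in fed livers and rose with fasting in both genotypes. Fasted α7HMZ livers held 8.29, 8.72 and 2.40 CPM, against 0.699, 0.162 and 0.111 CPM in fed α7HMZ livers at 10:30. Fasted WT livers held 5.60, 32.6 and 13.35 CPM, against 0.454, 0.431 and 0.0813 CPM in fed WT livers. In each genotype the lowest fasted liver lay above the highest fed one. The log2 fold change was 4.45 (SE 0.862, adjusted p = 0.00396 in edgeR) in α7HMZ livers and 5.58 (SE 0.785, adjusted p = 3e-04) in WT livers. These fold changes rest on 2 to 8 reads in the fed α7HMZ libraries and 1 to 10 in the fed WT libraries, so their size is loosely set. Without fasted α7HMZ replicate 3 the α7HMZ value was 4.82 (adjusted p = 0.00135). Between fasted livers the genotypes overlapped, and the difference of -1.39 (SE 0.550, adjusted p = 0.104) was not called; without that library it was -1.02 (adjusted p = 0.248). Without fasted WT replicate 1 it was called, at -1.82 (adjusted p = 0.0288). At the later fed times, α7HMZ livers had 0.690, 0.619 and 0.345 CPM at 13:30 and 0.476, 0.438 and 0.619 CPM at 20:30, against 0.509, 0.878 and 0.630 CPM and 3.12, 0 and 0.774 CPM in WT livers. WT replicate 1 at 20:30 was the highest fed liver, with 63 reads, and replicate 2 of that group, the shallowest library, had 0 reads, which allows up to 3 reads.

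The receptor side of FGF21 was compared with a list of 6 genes (Fgfr1 to Fgfr4, Klb and Frs2). Averaged over the fed times, 2 were higher and 1 was lower in α7HMZ livers, where 13.3% of all genes were higher and 13.2% lower. Fgfr1, a receptor FGF21 can use with β-klotho, was higher by 1.27 (SE 0.0828, adjusted p = 1.25e-09 in edgeR), Fgfr2 was higher by 0.45 (SE 0.0788, adjusted p = 0.000266), and Fgfr3 had a log2 fold change of -1.08 (SE 0.131, adjusted p = 4.68e-06). The co-receptor Klb, at -0.04 (SE 0.0870), and the main hepatocyte receptor Fgfr4, at 0.17 (SE 0.0912), were not called. The list had a median of 0.164, against 0.027 over all genes.

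Gdf15 (chr8:70629393-70632456, minus strand), a stress hormone of the TGF-β family, was lowly expressed, and edgeR called no difference in it. With fasting, α7HMZ livers had 11.7, 12.6 and 3.88 CPM, against 5.24, 2.68 and 2.44 CPM in fed α7HMZ livers at 10:30. With fasting, WT livers had 3.68, 7.77 and 5.38 CPM, against 5.08, 4.99 and 1.55 CPM in fed WT livers. In both genotypes the fasted and fed values overlapped. The fasting difference was 1.47 (SE 0.481, adjusted p = 0.0624 in edgeR) in α7HMZ livers and 0.50 (SE 0.473, adjusted p = 0.476) in WT livers. Without fasted α7HMZ replicate 3 the α7HMZ difference was called at 1.83 (adjusted p = 0.0105), and without fed α7HMZ replicate 1, the library with the most Rn45s, it was called at 1.89 (adjusted p = 0.0363). In all, it was called in 7 of 17 alternatives, among them DESeq2 (1.45, adjusted p = 0.0169), no filter (1.48, adjusted p = 0.0352) and all 24 libraries in 1 fit (1.47, adjusted p = 0.0271). These 7 count the fit without fed α7HMZ replicate 1 again as the fit without the doubted libraries. Between fasted livers the genotypes overlapped, at 0.75 (edgeR adjusted p = 0.287), or 1.10 (adjusted p = 0.0876) without fasted α7HMZ replicate 3. The genotype by fasting test gave 0.97 (SE 0.673, adjusted p = 0.506), or 1.34 (adjusted p = 0.385) without that library. At 13:30 and 20:30 Gdf15 lay between 1.24 and 3.44 CPM in α7HMZ livers, against 0.991 to 2.57 CPM in WT.

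Igfbp1 (chr11:7197782-7202546, plus strand) encodes the insulin-repressed binding protein of IGF1 and is a textbook FOXO1 target. It varied widely between fed mice of 1 group (coefficient of variation 30.5% to 107%). Fasted α7HMZ livers had 123.1, 116.3 and 50.1 CPM, against 59.0, 15.8 and 20.0 CPM in fed α7HMZ livers at 10:30. Fasted WT livers had 294.4, 469.5 and 301.3 CPM, against 44.8, 48.2 and 140.6 CPM in fed WT livers. Every fasted WT liver was above every fed WT liver, whereas the α7HMZ groups overlapped. The rise in WT livers was 2.19 (SE 0.530, adjusted p = 0.0101 in edgeR) and was lost without fed WT replicate 2 (1.94, adjusted p = 0.0514). In α7HMZ livers the difference was 1.62 (SE 0.531, adjusted p = 0.0638), which was called without fasted α7HMZ replicate 3 (1.92, adjusted p = 0.0313) or without fed α7HMZ replicate 1 (2.43, adjusted p = 0.00853). All 3 fasted α7HMZ livers lay below all 3 fasted WT livers, with a log2 fold change of -1.89 (SE 0.523, adjusted p = 0.0277). That call was lost without fasted α7HMZ replicate 3 (-1.59, adjusted p = 0.0832), without fasted α7HMZ replicate 2 (-2.04, adjusted p = 0.0531) or without fasted WT replicate 2 (-1.64, adjusted p = 0.0982). It was also lost with all 24 libraries in 1 fit (-1.88, adjusted p = 0.0628). At 13:30, α7HMZ livers had 18.1, 9.56 and 14.9 CPM, against 13.3, 103.7 and 22.5 CPM in WT livers. At 20:30, they had 15.3, 51.9 and 19.7 CPM, against 63.8, 7.69 and 58.9 CPM in WT livers. The genotypes overlapped at both times. The fed average difference was -1.21 (SE 0.436, adjusted p = 0.0473), a call lost in many of the 28 alternatives, among them DESeq2 (adjusted p = 0.058), without WT replicate 2 at 13:30 (-0.75, adjusted p = 0.177), and without any one of WT replicate 3 at 10:30, WT replicates 1 and 3 at 20:30, α7HMZ replicates 2 and 3 at 10:30, all α7HMZ replicates at 13:30, or α7HMZ replicates 1 and 3 at 20:30 (adjusted p = 0.0543 to 0.121).

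Igfbp2 (chr1:72824503-72852474, plus strand), whose protein also binds IGFs, had the highest CPM of the 9 genes in every group and a small spread. Fasted α7HMZ livers had 619.5, 525.9 and 379.5 CPM, against 397.7, 467.2 and 392.8 CPM in fed α7HMZ livers at 10:30. Fasted WT livers had 798.9, 870.4 and 916.6 CPM, against 413.3, 366.1 and 519.6 CPM in fed WT livers. The WT groups were separate and the α7HMZ groups overlapped. Fasting raised Igfbp2 by 1.00 (SE 0.175, adjusted p = 0.00143 in edgeR) in WT livers, and the difference was 0.28 (SE 0.173, adjusted p = 0.329) in α7HMZ livers, or 0.44 (adjusted p = 0.106) without fasted replicate 3. The interaction, -0.72 (SE 0.245, unadjusted p = 0.0115, adjusted p = 0.237 in edgeR), was not called, nor was it without that library (-0.56, adjusted p = 0.37). Fasted α7HMZ livers were lower than fasted WT livers by a log2 fold change of -0.77 (SE 0.174, adjusted p = 0.00952), which was -0.61 (adjusted p = 0.032) without fasted α7HMZ replicate 3 and -0.46 (adjusted p = 0.0643) under GC content offsets. Fed levels at 13:30 were 464.6, 422.3 and 628.9 CPM in α7HMZ livers, against 528.2, 486.2 and 411.5 CPM in WT livers. At 20:30 they were 514.1, 488.5 and 344.6 CPM in α7HMZ livers, against 565.7, 607.0 and 791.4 CPM in WT livers. The 20:30 groups did not overlap (-0.54, SE 0.183, adjusted p = 0.0444), but the call was lost in 10 of 17 alternatives, with adjusted p between 0.023 and 0.961: under GC content offsets the difference was -0.018, and without WT replicate 3 or α7HMZ replicate 3 it was -0.39 in both cases. Without WT replicate 2 or α7HMZ replicate 2 it was -0.59 (adjusted p = 0.0573) and -0.61 (adjusted p = 0.0536).

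Of 16 tested genes of the wider IGF axis, 1 rose and 2 fell with fasting in α7HMZ livers, and 1 rose and 5 fell in WT livers. Over all genes, 6.68% rose and 5.9% fell in α7HMZ livers, and 12% rose and 10.6% fell in WT livers. Ghr, the growth hormone receptor, fell in both, by 0.95 (SE 0.131, adjusted p = 0.00044 in edgeR) in α7HMZ livers and by 1.00 (SE 0.131, adjusted p = 0.000188) in WT livers on the log2 scale; without fasted α7HMZ replicate 3 the α7HMZ value was -1.03 (adjusted p = 0.000642). Irs2, the insulin receptor substrate that fasting is known to induce, rose by 2.23 (SE 0.442, adjusted p = 0.00453) in α7HMZ livers and was not called in WT livers (0.23, SE 0.417). Without that library the α7HMZ value of Irs2 was 2.52 (adjusted p = 0.00134). The genotype by fasting test gave 2.00 (adjusted p = 0.203) for Irs2, or 2.29 (adjusted p = 0.138) without that library. It called 0 of the 16, where 0.252% of all genes were called. Igf1 fell by 0.45 (SE 0.136, adjusted p = 0.045) in fasted α7HMZ livers and by 0.46 (SE 0.136, adjusted p = 0.027) in fasted WT livers. The α7HMZ call of Igf1 was lost without fasted replicate 3 (-0.37, adjusted p = 0.14), which left 1 of the 16 higher and 1 lower. Averaged over fed times, 3 of the 16 were lower in α7HMZ livers (Ghr at -0.44, Igf1 at -0.27 and Igfbp7 at -0.26) and 0 higher. Over all genes, 13.3% were higher and 13.2% lower. Under GC content offsets the split of the 16 was 2 higher and 0 lower.

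Angptl4 (chr17:33773750-33781830, minus strand), a PPARα target whose protein inhibits lipoprotein lipase, was not called by edgeR in any comparison. The fasted α7HMZ mice had 211.2, 212.9 and 225.5 CPM, against 251.2, 121.1 and 155.0 CPM in fed α7HMZ livers at 10:30. The fasted WT mice had 168.5, 280.1 and 321.3 CPM, against 193.1, 202.1 and 138.5 CPM in fed WT livers. The fasted and fed groups overlapped in both genotypes, and the 3 fasted α7HMZ livers were the most even of all 8 groups. The fasting difference was 0.30 (SE 0.259, adjusted p = 0.494 in edgeR) in α7HMZ livers, or 0.26 (adjusted p = 0.645) without replicate 3. In WT livers it was 0.53 (SE 0.260, adjusted p = 0.158), and it was called without fasted WT replicate 1 (0.76, adjusted p = 0.0457). At 13:30, α7HMZ livers had 153.6, 88.3 and 104.6 CPM, against 229.4, 185.8 and 167.3 CPM in WT livers. At 20:30, they had 120.1, 180.4 and 95.5 CPM, against 231.9, 129.6 and 199.0 CPM in WT livers. The 13:30 groups did not overlap (-0.75, SE 0.281, adjusted p = 0.0947), a difference called in 4 of 17 alternatives, among them DESeq2 (-0.76, adjusted p = 0.0471) and the fit without the 4 doubted libraries (-0.74, adjusted p = 0.0187). It was also called without α7HMZ replicate 1 at that time (-1.03, adjusted p = 0.0442). The fed average was -0.42 (SE 0.162, adjusted p = 0.064), called in 9 of 28 alternatives, DESeq2 included (-0.43, adjusted p = 0.0321).

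In the list of ANGPTL and lipoprotein lipase genes, 2 of 12 tested were higher and 7 lower in α7HMZ livers on the fed average, with a median of -0.262. Over all genes, 13.3% were higher and 13.2% lower, with a median of 0.027. Lpl, the lipase that ANGPTL4 inhibits, was higher by 1.92 (SE 0.133, adjusted p = 2.93e-09 in edgeR). The apolipoproteins Apoc2, the cofactor of the lipase, and Apoc3, an inhibitor of it, had log2 fold changes of -1.73 (SE 0.0712, adjusted p = 1.81e-12) and -1.93 (SE 0.125, adjusted p = 1.04e-09). In fasted livers, Lpl was again higher in α7HMZ than in WT livers, by 2.24 (SE 0.235, adjusted p = 3.43e-05), or 2.36 (adjusted p = 2.95e-05) without fasted α7HMZ replicate 3, averaging 78.5 CPM in α7HMZ livers against 16.5 CPM in WT. Lpl is also made by Kupffer cells and other nonparenchymal cells, and 4 of 7 Kupffer markers were called higher in fasted α7HMZ livers; their part in the result was not tested.

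Inhbe (chr10:127348857-127354411, minus strand), encoding the subunit of activin E, was higher in fasted than in fed livers at 10:30 in both genotypes. It was lower in α7HMZ than in WT livers. Fasted α7HMZ livers had 26.1, 39.6 and 23.4 CPM, against 5.51, 12.3 and 7.88 CPM in fed α7HMZ livers at 10:30. Fasted WT livers had 48.9, 112.4 and 70.2 CPM, against 18.4, 15.2 and 16.5 CPM in fed WT livers. No group overlapped its counterpart by feeding or by genotype. Fasting raised Inhbe by 1.80 (SE 0.316, adjusted p = 0.00221 in edgeR) in α7HMZ livers and by 2.21 (SE 0.305, adjusted p = 0.000263) in WT livers, and both calls held in all 17 alternatives, at 1.93 (adjusted p = 0.00183) in α7HMZ livers without fasted replicate 3. Fasted α7HMZ livers were lower than fasted WT livers, at -1.38 (SE 0.294, adjusted p = 0.0068), and at -1.25 (adjusted p = 0.0249) without fasted α7HMZ replicate 3.

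In fed livers every α7HMZ mouse lay below every WT mouse in Inhbe at each time, with calls at 13:30 and 20:30. At 13:30, α7HMZ livers had 30.7, 17.96 and 20.5 CPM, against 76.0, 38.5 and 58.9 CPM in WT livers. At 20:30, they had 12.2, 19.0 and 23.3 CPM, against 51.9, 42.6 and 23.8 CPM in WT livers. At 20:30 the highest α7HMZ liver and the lowest WT liver were close. At 10:30 the difference was -0.96 (SE 0.341, adjusted p = 0.0609 in edgeR), which was not called but was called by DESeq2 (adjusted p = 0.0174). The 13:30 difference was -1.32 (SE 0.311, adjusted p = 0.00784), with a 20:30 value of -1.13 (SE 0.318, adjusted p = 0.0193). The 13:30 call was lost without WT replicate 1 (-1.07, adjusted p = 0.0539). The 20:30 call was lost without WT replicate 1 (-0.86, adjusted p = 0.096), without α7HMZ replicate 1 (-0.90, adjusted p = 0.0845) or without the 4 doubted libraries (-1.003, adjusted p = 0.193), which leaves 1 α7HMZ liver at that time. The fed average of -1.14 (SE 0.187, adjusted p = 0.000136) was called in all 28 alternatives. Fed WT livers at 10:30 held less Inhbe than at the later times (16.7 ± 1.64, 57.8 ± 18.8 and 39.4 ± 14.3 CPM at 10:30, 13:30 and 20:30, SD, n = 3 each), as did fed α7HMZ livers (8.57 ± 3.46, 23.1 ± 6.75 and 18.1 ± 5.59 CPM); the 10:30 libraries were on another flow cell, so time and flow cell cannot be told apart there.

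Fst (chr13:114452290-114458951, minus strand), encoding the activin-binding protein follistatin, was higher in fasted than in fed livers at 10:30, at a like level in both genotypes. Fasted α7HMZ livers had 5.77, 3.24 and 4.11 CPM, against 0.699, 1.38 and 0.721 CPM in fed α7HMZ livers at 10:30. Fasted WT livers had 5.69, 4.15 and 4.01 CPM, against 1.09, 1.29 and 1.30 CPM in fed WT livers. The fasted and fed groups at 10:30 were separate in each genotype. Fasted α7HMZ livers overlapped fed α7HMZ livers of the same flow cell at 13:30, but not at 20:30. The rise was 2.24 (SE 0.316, adjusted p = 0.000477 in edgeR) in α7HMZ livers and 1.93 (SE 0.297, adjusted p = 0.000578) in WT livers, called in all 17 alternatives. Without fasted α7HMZ replicate 3 the α7HMZ rise was 2.26 (adjusted p = 0.000796). Between fasted livers the genotypes overlapped (-0.09, SE 0.263, adjusted p = 0.85), also without that library (-0.07, adjusted p = 0.903). At 13:30, fed α7HMZ livers had 1.74, 4.88 and 2.24 CPM, against 0.694, 1.55 and 1.37 CPM in WT livers, and the difference was 1.29 (SE 0.346, adjusted p = 0.0187). That call rested on α7HMZ replicate 2 (0.68, adjusted p = 0.214 without it) and on WT replicate 1 (1.01, adjusted p = 0.106 without it), and was lost with only those groups in the fit (adjusted p = 0.0754). At 20:30, α7HMZ livers had 2.70, 2.50 and 2.03 CPM, against 1.39, 1.54 and 1.74 CPM in WT livers, separate but not called (0.64, SE 0.369, adjusted p = 0.238). All but 1 fed library had fewer than 70 Fst reads. The exons of Fst share 115 bases (2.5%) with the antisense gene Gm47040, which is not in the count table.

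Among 14 tested genes of the activin and follistatin list, 2 rose with fasting and 0 fell in α7HMZ livers, and 1 rose and 2 fell in WT livers. The shares called were near those over all genes, 12.6% in α7HMZ and 22.7% in WT livers. With fasted α7HMZ replicate 3 left out the α7HMZ split was 1 and 0, without the 4 doubted libraries it was 3 and 2, and under GC content offsets the WT split was 2 and 0. Inhbc, encoding the other hepatocyte activin subunit, rose in both genotypes, by 1.05 (SE 0.180, adjusted p = 0.00182 in edgeR) in α7HMZ livers (1.15, adjusted p = 0.00142, without fasted replicate 3) and by 0.83 (SE 0.179, adjusted p = 0.00535) in WT livers. Unlike Inhbe, Inhbc was not called between genotypes in fed livers (average 0.06, SE 0.0682) or in fasted ones (0.23, SE 0.177, or 0.33 without that library); the contrast between the genes was not tested. Inhba, the subunit of activin A, had a log2 fold change of -1.31 (SE 0.447, adjusted p = 0.0722) with fasting in α7HMZ livers, which was not called (-1.28, adjusted p = 0.126, without fasted replicate 3), and fell by 1.65 (SE 0.463, adjusted p = 0.0214) in WT livers.

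Lepr (chr4:101717404-101815352, plus strand) encodes the leptin receptor, which in liver includes short forms and a soluble form that binds leptin in blood. It was higher in α7HMZ livers in all 4 conditions. Counts per gene do not separate its isoforms. Fed α7HMZ livers had 27.9, 30.7 and 21.8 CPM at 10:30, against 5.58, 5.36 and 6.02 CPM in WT livers. At 13:30, they had 29.6, 49.3 and 29.8 CPM, against 14.4, 8.04 and 23.4 CPM in WT livers. At 20:30, they had 32.2, 31.9 and 28.7 CPM, against 10.9, 4.74 and 5.74 CPM in WT livers. Every α7HMZ liver was above every WT liver at each time. The 10:30 livers differed by 2.25 (SE 0.334, adjusted p = 0.000125 in edgeR), the 13:30 livers by 1.26 (SE 0.302, adjusted p = 0.00905) and the 20:30 livers by 2.06 (SE 0.327, adjusted p = 0.000256). The fed average was 1.86 (SE 0.186, adjusted p = 3.82e-07). The 10:30, 20:30 and average calls held in all alternatives, and the 13:30 call was lost without α7HMZ replicate 2 (0.96, adjusted p = 0.0682).

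With fasting, Lepr in α7HMZ livers was 24.3, 30.4 and 16.1 CPM, within the range of fed α7HMZ livers apart from the lowest (-0.18, SE 0.201, adjusted p = 0.625 in edgeR), and at 0.021 (adjusted p = 0.961) without fasted replicate 3. In WT livers it was 12.1, 13.4 and 9.83 CPM, above the 5.36 to 6.02 CPM of fed WT livers at 10:30, a rise of 1.06 (SE 0.219, adjusted p = 0.00402) called in all 17 alternatives. The fasted genotypes were separate, with α7HMZ livers higher by 1.00 (SE 0.205, adjusted p = 0.00533), and by 1.20 (adjusted p = 0.000635) without fasted α7HMZ replicate 3. The genotype by fasting test gave -1.24 (SE 0.297, unadjusted p = 0.00102), with an edgeR adjusted p of 0.117; DESeq2 gave -1.24 with an adjusted p of 0.0122, and without fasted α7HMZ replicate 3 edgeR gave -1.04 (adjusted p = 0.135). Ordered by mean, the 4 α7HMZ groups (36.2, 30.9, 26.8 and 23.6 CPM for 13:30, 20:30, 10:30 and fasted) overlapped neighbour by neighbour and came before the WT groups, in the order WT at 13:30 (15.3 CPM), fasted WT (11.8 CPM), WT at 20:30 (7.11 CPM) and WT at 10:30 (5.65 CPM). Fasted α7HMZ overlapped with WT at 13:30, and each WT group overlapped with the next. In WT livers Lepr was lower at 20:30 than at 13:30, at -1.02 (SE 0.327, adjusted p = 0.0335), although the groups overlapped and the call was lost in 7 of 17 alternatives, with adjusted p between 0.00546 and 0.214, among them without replicate 1 or 3 at 13:30 or replicate 2 or 3 at 20:30.

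Leprot lies upstream of Lepr on the same strand (chr4:101647718-101659364) and shared no exon bases with it in the annotation. It was not called in any comparison, ranging over 12.1 to 24.5 CPM in α7HMZ livers, against 13.1 to 19.2 CPM in WT. Downstream of the receptor, Socs3, the leptin-induced inhibitor of the pathway, was higher in α7HMZ livers on the fed average, by 0.87 (SE 0.191, adjusted p = 0.00213 in edgeR), and in fasted livers, by 1.02 (SE 0.301, adjusted p = 0.0369), or 1.33 (adjusted p = 0.00106) without fasted α7HMZ replicate 3. It also rose with fasting, by 1.42 (SE 0.313, adjusted p = 0.00862) in α7HMZ livers (1.74, adjusted p = 0.000201, without that library) and by 1.29 (SE 0.330, adjusted p = 0.0135) in WT livers. Ptpn1, a phosphatase acting on JAK2, was higher by 0.22 (SE 0.0746, adjusted p = 0.0341) on the fed average. These were the 2 of 9 genes called in that list, both higher, where 26.5% of all genes were called, and 1 was called without the 4 doubted libraries.

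Enho (chr4:41638144-41640324, minus strand), encoding adropin, was lower in α7HMZ livers at 20:30 and on the fed average. Fed α7HMZ livers had 12.2, 23.4 and 39.3 CPM at 10:30, against 48.6, 42.1 and 39.8 CPM in WT livers. At 13:30, they had 11.6, 13.1 and 19.4 CPM, against 22.8, 28.1 and 23.2 CPM in WT livers. At 20:30, they had 23.0, 22.5 and 10.4 CPM, against 34.5, 63.7 and 72.7 CPM in WT livers. The groups were separate at each time, at 10:30 by less than 1 CPM. The difference was called at 20:30 (-1.61, SE 0.348, adjusted p = 0.00377 in edgeR) and on the fed average (-1.05, SE 0.199, adjusted p = 0.000569), and was not called at 10:30 (-0.78, SE 0.343, adjusted p = 0.127) or at 13:30 (-0.76, SE 0.346, adjusted p = 0.179). The average was called in all 28 alternatives; the 20:30 call was lost without the 4 doubted libraries (-1.25, adjusted p = 0.0671), which leaves 1 α7HMZ liver at that time.

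Fasting was not seen to change Enho in either genotype. Fasted α7HMZ livers had 18.3, 20.7 and 22.1 CPM and a log2 fold change over fed of -0.30 (SE 0.299, adjusted p = 0.56 in edgeR), or -0.38 (adjusted p = 0.537) without replicate 3. Fasted WT livers had 27.2, 35.2 and 44.1 CPM and a log2 fold change over fed of -0.29 (SE 0.292, adjusted p = 0.506). The fasted α7HMZ livers were all below the fasted WT livers (-0.81, SE 0.297, adjusted p = 0.083), without a call, and at -0.89 (adjusted p = 0.119) without fasted α7HMZ replicate 3. DESeq2 called it (adjusted p = 0.044). By time, WT livers were higher at 20:30 than at 13:30 by 1.21 (SE 0.342, adjusted p = 0.0183), with separate groups, a call kept in 12 of 17 alternatives and lost under GC content offsets (0.84, adjusted p = 0.057) or without replicate 1 or 3 at 13:30 (adjusted p = 0.0588 and 0.0632) or replicate 2 or 3 at 20:30 (adjusted p = 0.0555 and 0.0915). In α7HMZ livers the groups overlapped (0.36, SE 0.348, adjusted p = 0.63). In the comparison of 20:30 with 13:30, 0 of 9 genes were called in α7HMZ livers by edgeR (5.21% of all genes; 0 of 9 against 19.3% of all genes at an unadjusted p under 0.05, and 0 of 9 by DESeq2) and 2 of 9 in WT livers (21.6% of all genes, 11.6% higher and 9.97% lower), Enho higher and Lepr lower. Enho shares 15 exon bases (1.2%) with the antisense gene Dnaic1, and the library kit does not keep strand.

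Other genes of the fasting routes were counted beside the members. Of 38 PPARα and oxidation targets, 30 rose and 0 fell with fasting in α7HMZ livers (median 1.033) and 31 rose and 0 fell in WT livers (median 1.193), against a median over all genes of -0.009 and 0.004. Over all genes, 6.68% rose in α7HMZ and 12% in WT livers. Cyp4a10, a fatty acid hydroxylase, rose by 4.62 (SE 0.234, adjusted p = 1.59e-07 in edgeR) in α7HMZ livers (4.82, adjusted p = 2.13e-08, without fasted replicate 3) and by 4.66 (SE 0.234, adjusted p = 2.86e-07) in WT livers. Cyp4a14, a related hydroxylase, rose by 3.55 (SE 0.316, adjusted p = 1.6e-05) in α7HMZ livers (3.77, adjusted p = 7.48e-06, without that library) and by 6.07 (SE 0.356, adjusted p = 6.69e-07) in WT livers. Reads of the closely related Cyp4a genes may be split among them. In the genotype by fasting test, 2 of the 38 were called, where 0.252% of all genes were, and flow cell and interaction cannot be told apart there. These were Cyp4a14 (-2.51, adjusted p = 0.0295) and the lipid droplet gene Cidec (-2.90, adjusted p = 0.0255), at -2.30 (adjusted p = 0.0415) and -2.77 (adjusted p = 0.0337) without fasted α7HMZ replicate 3. Without fasted α7HMZ replicate 3, 29 of the 38 rose and 0 fell in α7HMZ livers. On the fed average, 13 of the 38 were higher and 7 lower in α7HMZ livers, but 25 were higher and 3 lower under GC content offsets, which change the GC correction and the scaling together. In the reported fit, 13.3% of all genes were higher and 13.2% lower. Angptl4, known as a target of the same receptor, did not pass the test in either genotype with fasting.

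For the ATF4 and integrated stress response list, 4 of 24 rose and 1 fell with fasting in α7HMZ livers, and 8 rose and 3 fell in WT livers. Over all genes, 6.68% rose and 5.9% fell in α7HMZ livers, and 12% rose and 10.6% fell in WT livers. Atf5, a factor of this route, rose by 1.24 (SE 0.170, adjusted p = 0.000417 in edgeR) in α7HMZ livers (1.41 without fasted replicate 3) and by 1.64 (SE 0.171, adjusted p = 3.5e-05) in WT livers, and Sesn2, a stress-induced regulator of mTORC1, rose by 1.23 (SE 0.233, adjusted p = 0.00354) in α7HMZ livers (1.16 without it) and by 1.54 (SE 0.228, adjusted p = 0.000442) in WT livers. Between fasted livers, 2 of the 24 were higher and 6 lower in α7HMZ mice, where 6.9% of all genes were higher and 8.65% lower. Asns, asparagine synthetase, was higher by 1.55 (SE 0.325, adjusted p = 0.00618), and Shmt2, of mitochondrial one-carbon metabolism, had a log2 fold change of -0.82 (SE 0.103, adjusted p = 0.000158). Trib3, a pseudokinase of this route, was at -0.98 (SE 0.208, adjusted p = 0.00678). Without fasted α7HMZ replicate 3 the split was 3 higher and 3 lower, and Asns was at 1.64, Shmt2 at -0.82 and Trib3 at -0.94, all still called (adjusted p = 0.00825, 0.000865 and 0.0234).

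Of 23 tested genes of gluconeogenesis, glucagon and FOXO1 action, 1 was higher and 9 were lower in fasted α7HMZ than in fasted WT livers (median -0.542, against 0 over all genes), and 0 were higher and 9 lower without fasted α7HMZ replicate 3. With all libraries, 6.9% of all genes were higher and 8.65% lower. Pck1, the enzyme that commits carbon to glucose, averaged 1254 CPM in α7HMZ livers, against 4115 CPM in WT (-1.72, SE 0.333, adjusted p = 0.00368 in edgeR). Tat, tyrosine aminotransferase, averaged 828 CPM in α7HMZ livers, against 2501 CPM in WT (-1.60, SE 0.278, adjusted p = 0.00197). Aass, of lysine breakdown, had a log2 fold change of -1.51 (SE 0.226, adjusted p = 0.000653). With fasted α7HMZ replicate 3 left out, Pck1 was at -1.80 (adjusted p = 0.00957), Tat at -1.64 (adjusted p = 0.00585) and Aass at -1.39 (adjusted p = 0.00296). Igfbp1, named with this route above, was lower in the same comparison (-1.89, adjusted p = 0.0277 in edgeR). Its call was lost without that library (-1.59, adjusted p = 0.0832). With fasting, 4 of the 23 rose and 3 fell in α7HMZ livers, and 8 rose and 5 fell in WT livers. Over all genes, 6.68% rose and 5.9% fell in α7HMZ livers, and 12% rose and 10.6% fell in WT livers. Without fasted α7HMZ replicate 3 the α7HMZ split of the 23 was 3 and 1. Cdkn1a, encoding the cell cycle inhibitor p21, rose by 2.08 (SE 0.321, adjusted p = 0.00087) in α7HMZ livers (2.36 without that library) and by 2.23 (SE 0.322, adjusted p = 0.000364) in WT livers.

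**Figure D4:**
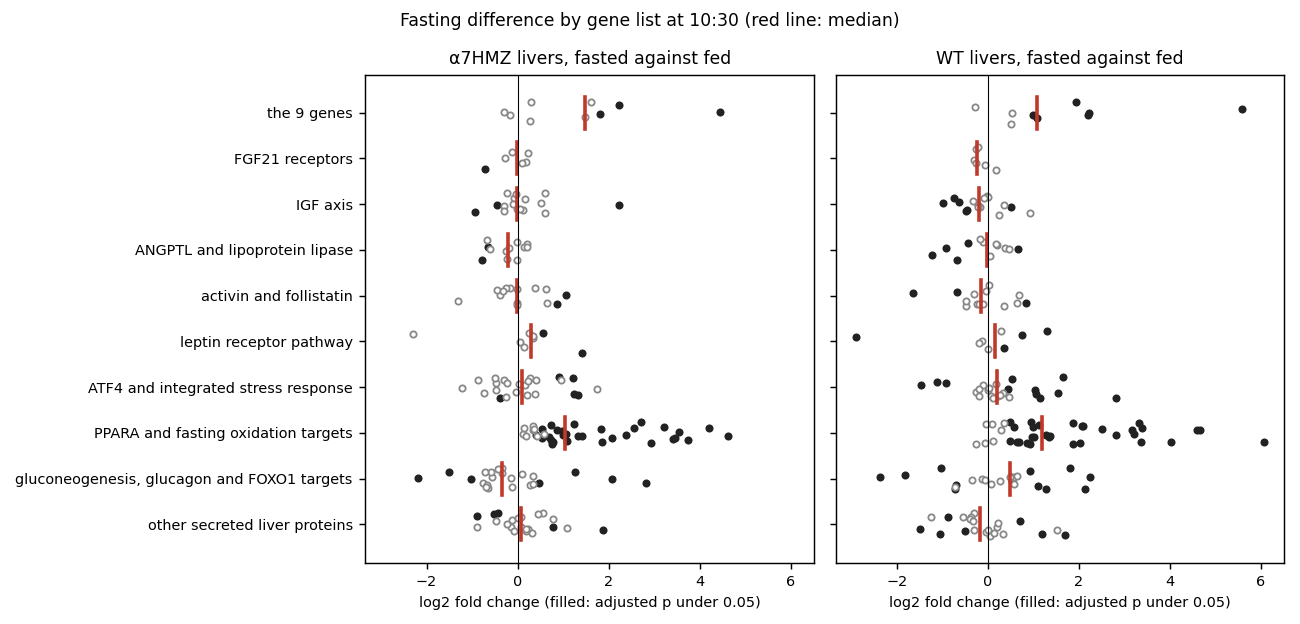
Log2 fold change of fasted over fed livers at 10:30 for the tested genes of each list, in α7HMZ livers (left) and WT livers (right); each point is a gene, filled where the edgeR adjusted p was under 0.05, and red lines are medians. The PPARα and oxidation targets stand to the right of 0 in both genotypes, with medians of 1.033 in α7HMZ and 1.193 in WT livers, as do the medians of the 9 genes, 1.473 and 1.064; the medians of the other lists lie between -0.355 and 0.485.

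Among 22 tested genes for other secreted liver proteins, 1 was higher and 8 were lower in α7HMZ livers on the fed average (median -0.193), or 3 higher and 6 lower under GC content offsets. In the reported fit, 13.3% of all genes were higher and 13.2% lower. Lect2, a hepatokine, had a log2 fold change of -1.03 (SE 0.0956, adjusted p = 1.55e-07 in edgeR) on the fed average and of -0.87 (SE 0.166, adjusted p = 0.00338) in fasted livers, or -1.02 without fasted α7HMZ replicate 3. It fell with fasting by 0.90 (SE 0.167, adjusted p = 0.00309) in α7HMZ livers (-1.05 without that library) and by 1.05 (SE 0.164, adjusted p = 0.00065) in WT livers. Fgl1, another secreted liver protein, rose with fasting, by 0.77 (SE 0.197, adjusted p = 0.0205) in α7HMZ livers and by 1.19 (SE 0.199, adjusted p = 0.00102) in WT livers; the α7HMZ call was lost without fasted replicate 3 (0.64, adjusted p = 0.0687).

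Likeness of pattern was measured as Pearson's r of log2 CPM over the 24 libraries, among 10952 other genes, as a description; the libraries share their group, so genes that differ between the same groups score high. For Fgf21 the most alike were Abcb4 (r = 0.913, Spearman's rho = 0.851), Araf (0.905 and 0.790) and Tmem30b (0.892 and 0.864). For Enho they were 9430023L20Rik (0.912 and 0.936), Ggact (0.902 and 0.921) and Mbl1 (0.874 and 0.864). For Lepr they were Sptb (0.865 and 0.772), Cep68 (0.847 and 0.837) and Wnk4 (0.844 and 0.809). For Inhbe they were Atad3a, Preb and D17Wsu92e (r = 0.870, 0.860 and 0.831), and for Fst they were Tcf3, Esrp2 and Plekhg5 (r = 0.865, 0.864 and 0.858). For Igfbp1 they were Irf2bp2, Arl4a and Srxn1 (r = 0.872, 0.843 and 0.831), for Igfbp2 Eif6, Klhdc3 and Dgat1 (r = 0.848, 0.832 and 0.830), and for Gdf15 Igsf10 and Spon2 (r = 0.841 and 0.832). Angptl4 had the weakest match (Dnmbp, r = 0.790), followed by Irf2bp2 (0.770) and Eif1 (0.740). Among the members, Fgf21 and Igfbp1 were the most alike (r = 0.760), and Lepr and Enho ran opposite to each other (r = -0.834).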

How the data were processed

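Poly(A) RNA from 24 livers was sequenced as single-end reads. According to the study's methods and processing notes, the authors mapped reads to mm10 with TopHat2 2.1.1, keeping unique alignments, and counted them per gene with HTSeq 0.6.1, from a kit that does not keep strand. The deposited raw count table (23411 genes, no column unused) was used; FPKM files were not. Counts were tested in R 4.3.3 with edgeR 4.0.16 (filterByExpr, TMM, glmQLFit, glmQLFTest), with calls at an adjusted p (Benjamini-Hochberg) below 0.05. All 18 fed libraries were fitted together (13334 genes), as were the 12 libraries of 10:30 (13103 genes). The SE is the log2 fold change over the square root of F. P-values weigh a difference against a spread between mice that all groups of the fit share, with 3 mice a group. That spread is estimated per gene and drawn toward that of other genes, so it can differ from the spread within the compared groups. Replicate pairs differed by more than sampling noise (chi-square per degree of freedom at least 11). Totals set counting precision: lowly expressed genes rest on few reads. Alternatives included other scalings (relative log expression, upper quartile, and offsets for GC content with full quantile scaling), DESeq2 1.42.0, other filters, a replicate block and each library left out. Scripts were tested on simulated data.

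The members and the gene lists were chosen with earlier results of these data known. Named genes are the 9 members, Hnf4a, Leprot, the 3 genes most like each member (mean log2 CPM of at least 1; 1 of them is not reported here) and, per list and comparison described, genes among the 3 with the smallest p; Klb, Fgfr4, Cidec, and Irs2, Igf1, Inhbc and Lpl in comparisons where they were not among these, were added after their values were seen. For fasting in α7HMZ livers, Cyp4a14 and Inhba were also not among the 3 genes of their list with the smallest p. The motif CAAAACAA was added after the promoter sequences were seen. Gene coordinates and lengths are from GENCODE vM21 (mm10). Promoter sequences are from RefSeq (GRCm38.p6).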

Additional observations from a re-analysis of the deposited data

How the results depend on the processing

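Counts of the 9 genes called moved as follows. At 10:30 fed, 2 genes in place of 1 were called with GC content offsets, DESeq2, no filter, only the compared groups, or without the 4 doubted libraries, and 1 to 2 with a library left out. At 13:30, 1 to 4 in place of 3 were called with a library left out, with 1 without WT replicate 1 or α7HMZ replicate 2. At 20:30, 1 in place of 4 was called without the 4 doubted libraries, which leaves 1 α7HMZ liver that is assumed to vary like the other groups. For 20:30 against 13:30 in WT livers, 0 in place of 2 were called with GC content offsets, 1 with only the compared groups, and 0 to 2 with a library left out (0 without WT replicate 1 or 3 at 13:30, or 2 or 3 at 20:30). For fasting in α7HMZ livers, 5 in place of 3 were called without a filter, and 3 to 5 with a library left out (5 without fasted replicate 3 or fed replicate 1). Fed replicate 1 was the only doubted library in that fit, so leaving out the doubted libraries was the same fit. DESeq2 called 1 in place of 0 for genotype by fasting. The cause was not tested.

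Values that changed sign were all without a call in the reported fit. With a library left out, Fgf21 at 20:30 ranged over -1.96 to 0.074 in α7HMZ over WT livers and over -0.48 to 1.54 in WT livers at 20:30 over 13:30, the sign turning without WT replicate 1. Enho with fasting in α7HMZ livers ranged over -0.62 to 0.20, turning without fed replicate 3. Under GC content offsets, Igfbp2 was 0.12 on the fed average and -0.035 in WT livers at 20:30 over 13:30. Values of single genes were counted where they were called or larger than their SE, with the genotype by time test counted for every gene. Smaller values were left out of the count. Lepr with fasting in α7HMZ livers was 1 of these, and it changed sign without fasted replicate 3. Of the other values counted, 1267 kept direction and call, 51 lost the call and 42 gained it.

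Replicate numbers did not pair the mice: same-numbered samples correlated between -0.196 and 0.172 in their deviations from group means, 3 of 24 over 0.1, and 12 of 24 were best matched by their own number. With the replicate number as a block, 1, 3 and 3 genes were called at 10:30, 13:30 and 20:30, 4 on the fed average, 4 and 6 with fasting in α7HMZ and WT livers, 4 between fasted genotypes, 2 for 20:30 against 13:30 in WT livers and 0 elsewhere. Fgf21, Fst and Gdf15, with few reads, are limited by depth.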
